A study of Gallus gallus with 40 samples.

Results

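Carbonic anhydrases are zinc enzymes that convert carbon dioxide and water into bicarbonate and a proton, and back. The isoenzymes share this reaction and differ in where they work: in the cytosol, in mitochondria, at the cell surface or in secretions. In the chorioallantoic membrane, the vascular membrane pressed against the eggshell of a bird embryo, the enzyme is known for its part in carbon dioxide exchange and in the acid that dissolves shell calcium, and it is abundant in epithelial cells of the chorion and in red cells. Described here are the 5 carbonic anhydrase genes whose name in the deposited annotation is CA2, CA13, CA9, CA6 or CA3A, out of 26152 gene models in the table. The annotation names 12 carbonic anhydrase genes in all, and the other 7 are given only beside these 5.

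Membranes came from Ross 308 broiler embryos, a fast-growing meat chicken, with no treatment other than incubation. There were 4 groups of 10 libraries: females at day 11, males at day 11, females at day 15 and males at day 15. Each of the 40 libraries carries its own embryo number in the labels, from 2 to 48 at day 11 and from 52 upward at day 15. Sex was read from a piece of each embryo's neck by a molecular test, per the labels. Levels are FPKM, that is, reads relative to gene length and to library depth, scaled between libraries. Tests were made on log2(scaled FPKM + 0.1) with limma over all 15880 genes that reached 0.5 FPKM in at least 10 libraries, and a gene is called at a Benjamini-Hochberg adjusted p below 0.05. The depth implied by the values was 28.3 to 49.2 M reads per library. Epithelial, endothelial and stromal markers were present in every group, the layers of this membrane: the summed level of 7 epithelial markers was 2761 to 5682 FPKM over the 40 libraries, of 7 endothelial markers 394 to 779 FPKM and of 6 stromal markers 5670 to 10098 FPKM. Red cells were included, with a summed red-cell marker level of 11675 to 52627 FPKM. Embryo 83 of the day 15 females and embryos 57 and 81 of the day 15 males stood at the ends of their groups for several genes below, and results that rest on them are given with that stated.

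CA2, CA13 and CA3A lie on the plus strand of chromosome 2 of build GRCg6a, in a stretch of 198 kb. CA3B lies between CA3A and CA2, and the minus-strand model ENSGALG00000052342 lies between CA13 and CA3A. CA13 (ENSGALG00000033428) spans 122624567 to 122638462, CA3A (ENSGALG00000033700) 122678180 to 122689749, CA3B (ENSGALG00000037975) 122705158 to 122724398 and CA2 (ENSGALG00000030781) 122766240 to 122822370. The annotated exons of CA2, CA13 and CA3A have the same lengths at exons 2, 3 and 6, which are 198, 119 and 156 bases in each, and exon 4 measures 93, 96 and 93 bases. These lengths are not particular to this stretch. CA5B, on chromosome 11, has the same lengths at exons 2, 3 and 6, and its exon 4 measures 96 bases. CA6 (ENSGALG00000002390) lies elsewhere, on chromosome 21 from 3234528 to 3244322 on the plus strand. CA9 (ENSGALG00000021340) lies on chromosome Z from 9225475 to 9236423 on the minus strand. CA6 has 10 exons and CA9 has 12, and exons 6 and 7 measure 67 and 158 bases in both. The CA2 model ends in an exon of 21 bases that lies 39.6 kb beyond the one before it. Each of the 5 genes has a single annotated transcript.

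By FPKM, the main isoenzyme changed between the days, with a limit on the day 11 order that is given below. CA13 had the highest FPKM of the 5 genes in all 20 libraries of day 11, and CA2 had the highest in all 20 libraries of day 15. CA2 is the cytosolic, fast isoenzyme known from red cells, kidney and bone-resorbing cells, and CA13 is another cytosolic isoenzyme. The ratio of CA2 to CA13 within a library ranged from 0.307 to 0.931 in day 11 females (median 0.574) and from 0.269 to 0.870 in day 11 males (median 0.485). It ranged from 1.88 to 3.32 in day 15 females (median 2.25) and from 1.58 to 3.16 in day 15 males (median 2.55), so the days did not overlap.

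**Figure D1:**
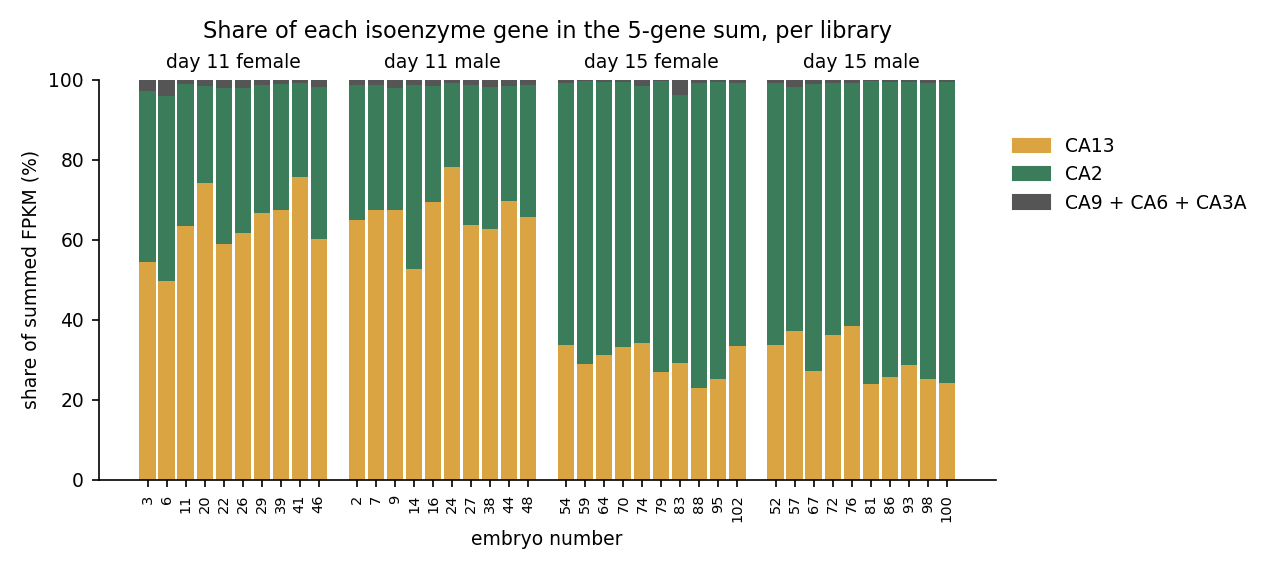
Share of each gene in the summed FPKM of the 5 genes (y axis, percent), one bar per library, ordered by embryo number within each group (x axis). CA13 is the largest part of every day 11 bar and CA2 the largest part of every day 15 bar, while CA9, CA6 and CA3A together never pass 3.97%.

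In shares of the summed FPKM of the 5 genes, CA2 went from 34.9 ± 7.34% to 69.1 ± 4.09% in females and from 32.4 ± 6.32% to 69.2 ± 5.98% in males (mean ± SD, n = 10 each). The differences were 34.2 percentage points in females and 36.8 in males. CA13 went from 63.3 ± 8.14% to 29.9 ± 3.92% in females and from 66.2 ± 6.43% to 30.1 ± 5.75% in males. For both genes and both sexes the two-sided permutation test with 100000 resamples gave p = 2e-05, the smallest it can give, and an adjusted p = 5e-05 over 10 comparisons. The share of CA13 fell while its own level, given below, did not, since shares add up to 100% and CA2 grew more. The summed level of the 5 genes had a median of 332 FPKM in day 11 females and 296 FPKM in day 11 males, and of 1054 and 1042 FPKM in the day 15 groups.

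The day 11 order depends on the division by annotated length, and no other gene models were tried. FPKM divides by an annotated exon length of 1759 bases for CA2 and 1000 bases for CA13. Reads alone favour the longer model, here that of CA2. Counted as reads, without division by length, CA2 was ahead of CA13 in 5 of 10 day 11 females and 1 of 10 day 11 males, and in all 20 libraries of day 15. The change of shares between days stayed, with CA2 up by 31.7 percentage points in females and 34.3 in males on reads (permutation test, adjusted p = 4e-05 for both).

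CA2 rose in every comparison of the days. Its lowest, median and highest values were 69.9, 116 and 158 FPKM in day 11 females and 66.8, 98.2 and 139 FPKM in day 11 males. At day 15 they were 535, 745 and 904 FPKM in females and 260.3, 707 and 1677 FPKM in males. The lowest day 15 library stood above the highest day 11 library. The log2 change was 2.74 ± 0.13 (SE; 95% confidence interval 2.48 to 3.01), a rise of 6.70-fold, with an adjusted p = 1.39e-20 by limma. Of the 15880 genes tested, 49 had a larger rise. By mean FPKM, CA2 moved from rank 662 to rank 101 among the gene models. In bulk tissue, more cells of a type and more RNA per cell cannot be told apart, for this and every result below.

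Day 15 males were the most uneven group for CA2, with a coefficient of variation of 49.9%, against 19.5% in day 15 females, 20.2% in day 11 males and 23.6% in day 11 females. The ends of the range were embryo 57, at 260.3 FPKM, and embryo 81, at 1677 FPKM, and the other 8 males lay between 507 and 872 FPKM. The same libraries were lowest and highest of the day 15 males for CA13, at 158 and 530.3 FPKM. They were also lowest and highest for the globin gene HBA1 (6681 and 29829 FPKM), the anion exchanger gene SLC4A1 (223 and 715 FPKM) and the ammonium transporter gene RHCG (128 and 548 FPKM). What part red-cell content has in these extremes was not tested.

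CA13 was high on both days. It stood at 75.03, 226 and 435 FPKM in day 11 females (lowest, median and highest) and at 148, 187 and 373 FPKM in day 11 males. At day 15 it stood at 233, 306 and 378 FPKM in females and at 158, 288 and 530.3 FPKM in males. The days overlapped widely, and a single day 15 library lay above the highest of day 11. The log2 change was 0.56 ± 0.15 (1.48-fold; adjusted p = 0.00188 by limma). By mean FPKM, CA13 held rank 296 at day 11 and rank 219 at day 15.

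The call for CA13 rested on the day 11 embryos with low numbers. Within day 11, CA13 rose with embryo number by 0.19 ± 0.07 on the log2 scale per 10 numbers (adjusted p = 0.0450, limma with sex as covariate; 15.8% of all tested genes were called higher in this comparison). That slope was not called without the filter on low values (adjusted p = 0.0689) or with plain moderation (adjusted p = 0.0543). Among day 11 females its median was 184 FPKM in the 4 embryos numbered 2 to 20 and 233 FPKM in the 6 numbered 22 to 48. Among day 11 males it was 160.3 and 237 FPKM, in 5 embryos each. Without the embryos numbered 2 to 20, the change to day 15 was 0.34 ± 0.16 and was not called (adjusted p = 0.0750). Without those numbered 22 to 48, it was 0.84 ± 0.18 (adjusted p = 0.000241). CA2 changed by 2.63 ± 0.16 and 2.89 ± 0.19 in the same comparisons. At day 15 no member followed embryo number, and neither did any of the 15880 genes (981 had an unadjusted p below 0.05). Every day 15 number is above every day 11 number, so number and day cannot be told apart over the whole series.

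**Figure D2:**
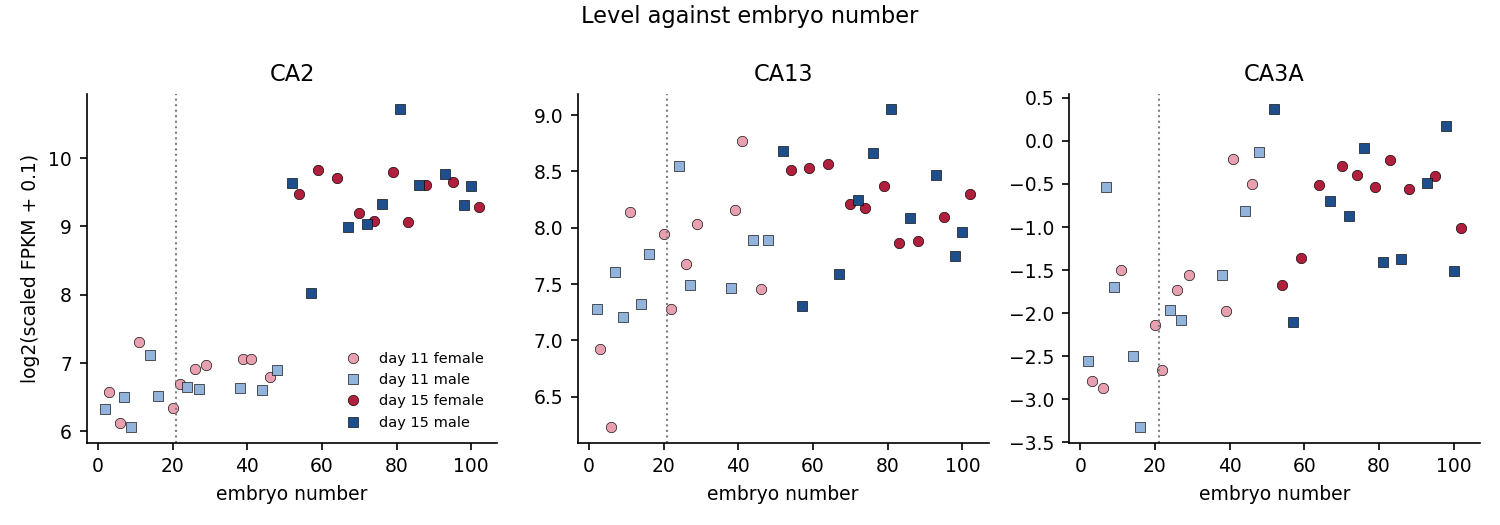
Level as log2(scaled FPKM + 0.1) (y axes) against embryo number (x axes) for CA2, CA13 and CA3A, with circles for females and squares for males; the dotted line separates day 11 embryos up to 20 from those from 22. CA2 steps up between the days. Within day 11 the climb with embryo number was called for CA13 and CA3A, and not for CA2, which had a smaller slope.

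CA3A is the first of a pair of neighbouring genes related to mammalian CA3, a cytosolic isoenzyme of muscle with low activity. It was scarce. Its lowest, median and highest values were 0.0364, 0.178 and 0.765 FPKM in day 11 females and 0, 0.182 and 0.815 FPKM in day 11 males, where embryo 16 was listed at 0. At day 15 they were 0.214, 0.597 and 0.755 FPKM in females and 0.133, 0.482 and 1.19 FPKM in males. These values correspond to a median of 5 reads in each day 11 group, 17 in day 15 females and 14 in day 15 males. CA3A reached 0.5 FPKM in 17 libraries, 12 of them of day 15, and so entered the test mainly through the group where it is higher.

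The log2 change of CA3A was 1.01 ± 0.26 (adjusted p = 0.000842 by limma) and depended on the constant added before the logarithm, from 0.30 with 1 to 1.51 with 0.01. CA3A also rose with embryo number within day 11, by 0.39 ± 0.12 per 10 numbers (adjusted p = 0.0125). Without the embryos numbered 2 to 20 its change to day 15 was 0.63 ± 0.28 and was not called (adjusted p = 0.0561). Without those numbered 22 to 48 it was 1.48 ± 0.30 (adjusted p = 8.69e-05).

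CA9 encodes a membrane isoenzyme with its catalytic part outside the cell, known in human cells as a target of the hypoxia-inducible factors. It stood at 2.02, 3.41 and 4.34 FPKM in day 11 females (lowest, median and highest) and at 1.66, 2.32 and 3.803 FPKM in day 11 males. At day 15 it stood at 2.69, 3.66 and 27.9 FPKM in females and at 2.57, 4.34 and 5.22 FPKM in males. Of the day 15 females, embryos 83 (27.9 FPKM), 74 (10.3 FPKM), 54 (6.84 FPKM) and 88 (5.72 FPKM) lay above the day 11 female range, and the other 6 lay within it. The averaged log2 change was 0.70 ± 0.19 (1.62-fold; adjusted p = 0.00132 by limma). In females alone it was 0.65 ± 0.26 (adjusted p = 0.0384), and without embryo 83 it was 0.38 ± 0.20 and not called (adjusted p = 0.107). In males it was 0.74 ± 0.26 (adjusted p = 0.0184).

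Embryo 83 also held the highest CA4 value of the day 15 females, 3.98 FPKM against a group median of 0.198. It was the lowest of its group for CA2 (535 FPKM), CA13 (233 FPKM), HBA1 (9499 FPKM) and FOXI1 (41.04 FPKM), and the highest for the epithelial gene EPCAM (977 FPKM). The last 261 bases of the plus-strand gene ENSGALG00000002578 overlap the CA9 model, and the strand setting of the counting is not given in the sources used here. That gene stood at 15.0 to 20.7 FPKM over all 40 libraries and at 18.3 FPKM in embryo 83.

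CA6 encodes a secreted isoenzyme, known from mammalian saliva. Its lowest, median and highest values were 0.872, 1.70 and 2.27 FPKM in day 11 females and 0.709, 1.22 and 2.15 FPKM in day 11 males. At day 15 they were 1.26, 1.80 and 2.74 FPKM in females and 1.38, 2.34 and 3.55 FPKM in males. Female ranges overlapped over most of their width. The averaged log2 change was 0.48 ± 0.13 (1.39-fold; adjusted p = 0.00193 by limma). In males it was 0.77 ± 0.19 (adjusted p = 0.000717), and in females 0.18 ± 0.19 (adjusted p = 0.441). The difference between the sexes in this change was 0.59 ± 0.26 (95% confidence interval 0.05 to 1.12) and was not called (p = 0.0314, adjusted p = 1.00 over all genes).

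**Figure D3:**
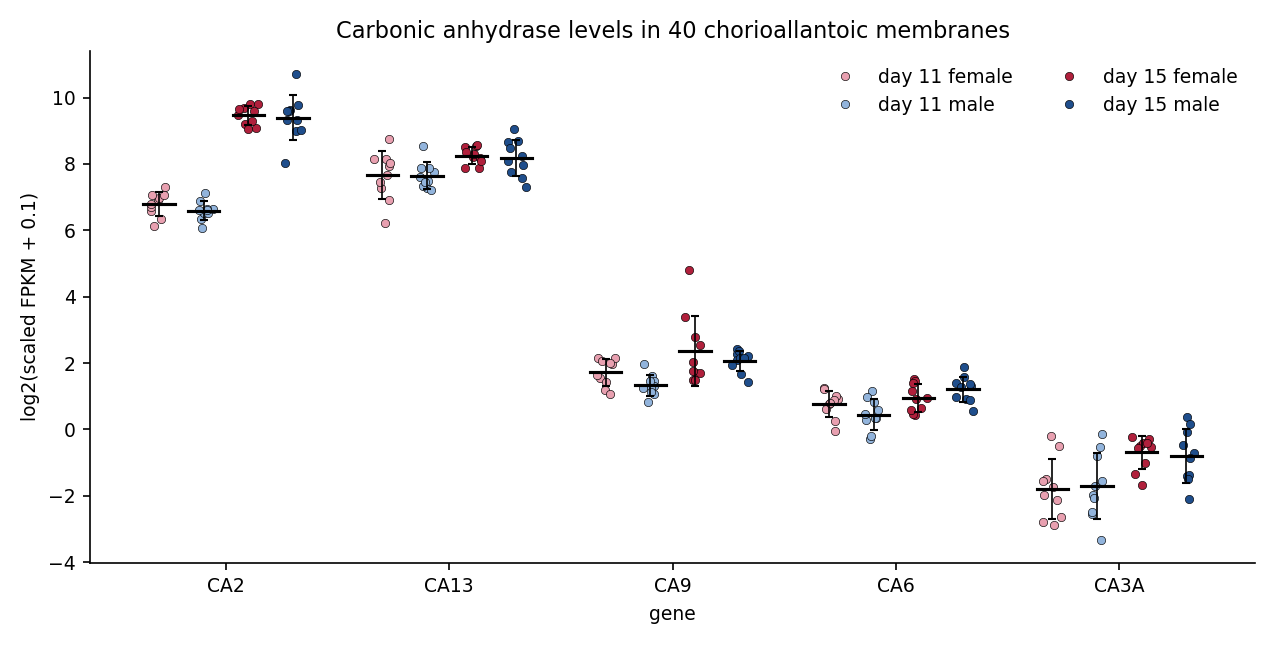
Level of each of the 5 genes in every library as log2(scaled FPKM + 0.1) (y axis), grouped by gene (x axis) and coloured by day and sex; lines are group means and bars are SD (n = 10 each). CA2 and CA13 lie far above CA9, CA6 and CA3A, and CA2 is the one gene whose day 15 libraries all lie above its day 11 libraries.

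CA2, CA13, CA9 and CA6, which reached 0.5 FPKM in every library, rose in the comparison averaged over the sexes, where 30.9% of the 15880 tested genes rose and 29.3% fell. CA3A was called too, but is not read against that background, since it entered the test mainly through day 15, where it is higher. Within the sexes, CA2, CA13 and CA9 rose in females and CA6 was not called, where 23.5% of all tested genes rose. In males CA2, CA13, CA9 and CA6 rose, where 24.4% of all tested genes rose. With CA3A counted, the calls were 4 of 5 in females and 5 of 5 in males, which are not set against those shares. In the averaged comparison 60.2% of all tested genes were called in one direction or the other. CA2 changed by 2.74 and the other 4 genes by 0.48 to 1.01. Without the day 11 embryos numbered 2 to 20 the calls were 3 of 5 averaged, 1 of 5 in females (CA2) and 2 of 5 in males (CA2 and CA6). The CA9 call within each sex was also lost without the embryos numbered 22 to 48. Without scaling, and likewise without the filter on low values, the calls were 3 of 5 in females and 4 of 5 in males. They were 3 of 5 in females without embryo 83, and 4 of 5 in males with red-cell level as covariate.

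The order of the genes within a library was steady below the leading pair. In all 4 groups CA9 followed CA2 and CA13, then came CA6, with CA3A last by mean log2 level. CA9 exceeded CA6 by 0.95 ± 0.65 (SD of the within-library log2 difference) in day 11 females, by 0.88 ± 0.51 in day 11 males, by 1.42 ± 1.19 in day 15 females and by 0.85 ± 0.49 in day 15 males. It was the higher of the pair in 9 of 10 day 11 females and in all libraries of the other groups. The gap between CA9 and the lower of CA2 and CA13 was 5.07 to 6.11 on the log2 scale. Neighbouring genes differed in each of the 15 comparisons that could be tested, with an adjusted p of 0.00209 or 0.00391 (two-sided exact sign-flip permutation test, n = 10 libraries, for which 0.00195 is the smallest unadjusted p). The order was set by the means of the same libraries, so these tests are not a separate check of it. On reads in place of FPKM, CA13 against CA2 at day 11 did not pass in females or males (same test, adjusted p = 0.699 and 0.115). CA6 against CA3A in day 11 males was not tested, because CA3A is listed at 0 in a library. Shares of the 5-gene sum move with CA2, so the falls that follow restate in part the CA2 rise, while the averaged levels of CA6 and CA9 rose. The CA6 share fell in both sexes (by 0.363 percentage points in females, permutation test adjusted p = 8e-05, and by 0.185 in males, adjusted p = 0.0161). The share of CA9 changed by -0.355 percentage points in males and fell by that test (adjusted p = 0.0224). In females the difference of -0.410 did not pass (adjusted p = 0.360), and without embryo 83 it was -0.713 and passed (permutation test, adjusted p = 0.0138).

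None of the 5 genes was called between the sexes by limma, while 4.84% of all tested genes were called averaged over days, 3.48% at day 11 and 3.5% at day 15. For none of the 5 genes was the unadjusted p below 0.05 in any of these comparisons. Males minus females, averaged over days, the log2 difference was -0.13 for CA2 (95% confidence interval -0.39 to 0.14) and -0.04 for CA13 (-0.35 to 0.27). It was -0.03 for CA6 (-0.29 to 0.24) and -0.01 for CA3A (-0.53 to 0.51). Differences within these intervals could not be told from none. The change with day also showed no difference between the sexes for any of the 5 genes at an adjusted p below 0.05, while 4 of all tested genes (0.0252%) passed.

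CA9 was the member on chromosome Z, of which males carry a pair and females a single copy. Its log2 difference of males minus females was -0.35 (95% confidence interval -0.72 to 0.03; adjusted p = 0.435), from -0.39 at day 11 to -0.30 at day 15. Over the 676 tested Z genes the median difference was 0.48, 609 were above 0, 65.7% were called higher in males and 3.25% lower. Of these 676 genes 26, CA9 included, had a difference as low as that of CA9 or lower. The interval for CA9 lies below the Z median, but CA9 itself was not called.

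Outside the 5 genes, the annotation names CA3B, CA4, CA5B, CA7, CA8, CA10 and CA12. The largest change was that of CA3B, the neighbour and close relative of CA3A. It stood at 1.06 to 4.34 FPKM in day 11 females and at 2.19 to 7.10 FPKM in day 11 males. At day 15 it stood at 0.0735 to 0.589 FPKM in females and at 0.0137 to 0.272 FPKM in males, with every library below every day 11 library. Its log2 change was -3.25 ± 0.19 (adjusted p = 2.45e-18 by limma), opposite in sign to CA3A and CA2 on either side of it. CA3B reached 0.5 FPKM in 20 libraries of day 11 and 2 of day 15, and so entered the test through the day where it is higher. The sequences of CA3A and CA3B were not compared, and whether reads are shared between them was not tested. The summed level of 8 skeletal muscle markers was 1.23 to 5.52 FPKM, with MYOG and MYF5 near 0 in all groups (means of at most 0.0499 FPKM). Of the 3 muscle markers tested, MYOD1 fell by 1.17 ± 0.30 (adjusted p = 0.000924), from means of 1.33 and 0.763 FPKM in day 11 females and males to 0.560 and 0.258 FPKM. MYOD1 lay around the filter of 0.5 FPKM, with medians of 0.944 and 0.473 FPKM at day 11 and 0.611 and 0.211 FPKM at day 15. TNNI2 rose by 0.70 ± 0.20 (adjusted p = 0.00295), and TNNT3 was at -0.03 ± 0.18 (adjusted p = 0.914). Their part in the CA3B change was not tested.

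At day 15 CA3B was lower in males by 0.94 ± 0.26 on the log2 scale (adjusted p = 0.0287 by limma). The call was lost without embryo 83 (-0.90 ± 0.27, adjusted p = 0.0594), without the day 11 embryos numbered 22 to 48 (-0.94 ± 0.29, adjusted p = 0.0735) and with 1 in place of 0.1 as the added constant (-0.24 ± 0.14, adjusted p = 0.662). The test of whether its change with day differs between the sexes gave -1.51 ± 0.37 (adjusted p = 0.384).

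CA5B, a mitochondrial isoenzyme, came after CA2 and CA13 in level among all 12 genes. Its medians were 27.7 and 21.5 FPKM in day 11 females and males and 43.4 and 37.8 FPKM at day 15, and it rose by 0.66 ± 0.06 (adjusted p = 1.14e-11). It was lower in males by 0.21 ± 0.06 averaged over days (adjusted p = 0.0436), a call that was lost without embryo 83 (adjusted p = 0.0700), without either range of day 11 embryo numbers (0.0602 and 0.107), without scaling (0.166), without a filter (0.0603) and with plain moderation (0.0523). CA8 and CA10, which encode related proteins without enzyme activity, fell by 0.71 ± 0.12 (adjusted p = 2.36e-06) and 0.51 ± 0.17 (adjusted p = 0.00715). CA10 was not called without the embryos numbered 22 to 48 (-0.43 ± 0.21, adjusted p = 0.0860). CA4, CA7 and CA12 were too low to be tested. CA4, a membrane-anchored isoenzyme, had group medians of 0.129 to 0.370 FPKM, CA12, a transmembrane isoenzyme, of 0.0252 to 0.0441 FPKM, and CA7 was listed at 0 in 7 or 8 of 10 libraries of each group. Among receptor phosphatases with a carbonic anhydrase-like domain, PTPRG rose by 0.13 ± 0.05 (adjusted p = 0.0308) and PTPRZ1 fell by 2.07 ± 0.21 (adjusted p = 2.66e-11). PTPRZ1 was scarce, with medians of 0.891 and 1.14 FPKM in day 11 females and males and 0.179 and 0.138 FPKM at day 15. It so entered the test mainly through the day where it is higher.

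**Figure D4:**
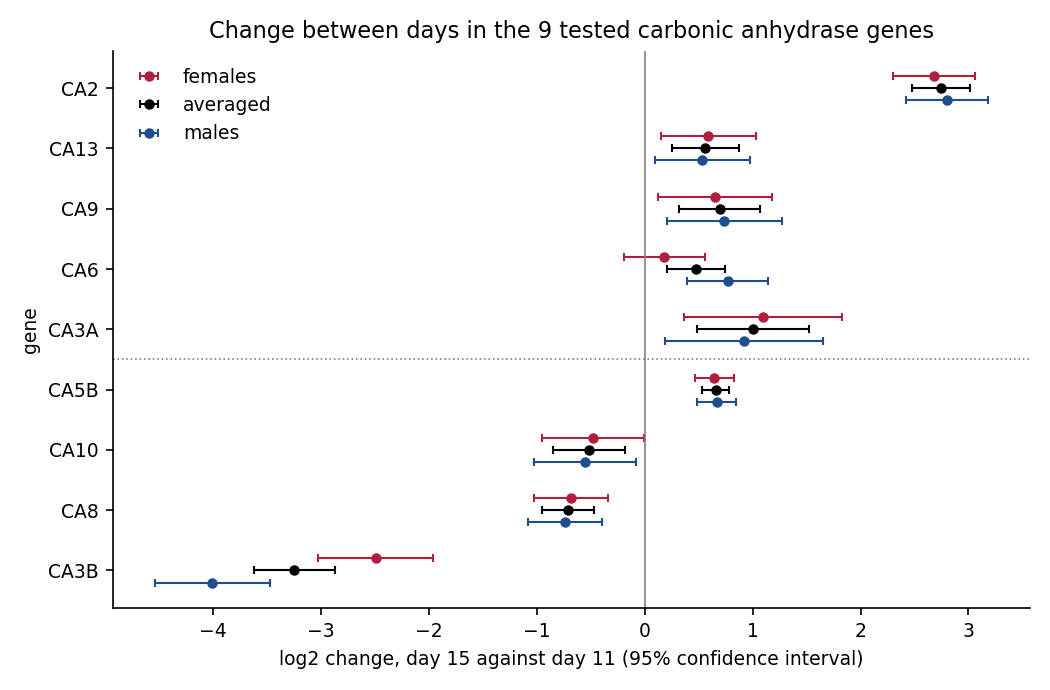
Log2 change from day 11 to day 15 (x axis) with 95% confidence intervals for the 9 carbonic anhydrase genes that were tested (y axis), in females, in males and averaged; the dotted line separates the 5 genes described from the other 4. CA2 has the largest rise at 2.74 and CA3B the largest fall at -3.25.

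The tested genes upstream of CA13 changed little. E2F5, next but one to CA13, changed by 0.05 ± 0.05 (adjusted p = 0.337), and LRRCC1 by -0.08 ± 0.06 (adjusted p = 0.226). RBIS, on the opposite strand next to CA13, fell by 0.21 ± 0.06 (adjusted p = 0.00331). These neighbours were taken by position and named after their values were seen.

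Genes of bicarbonate and proton transport, with some of ammonium and lactate transport among them, were counted in lists. The bicarbonate and proton transport list had 19 tested genes, of which 12 rose and 3 fell, 4 were not called and the median was 0.26. RHCG, an ammonium transporter, rose by 2.37 ± 0.17, from group means of 74.1 and 60.5 FPKM in day 11 females and males to 347 and 343 FPKM. The sodium-proton exchanger gene SLC9A2 rose by 1.65 ± 0.17 and the lactate transporter gene SLC16A3 by 1.53 ± 0.15. The anion exchanger gene SLC4A9 fell by 1.503 ± 0.25. Of 20 tested genes of the V-ATPase, the proton pump that acidifies compartments or the cell surface, 15 rose, 1 fell and 4 did not pass, with a median of 0.43. ATP6V0A4 rose by 1.31 ± 0.15, ATP6V0D2 by 1.24 ± 0.13, ATP6V1C2 by 1.17 ± 0.12 and ATP6AP1 by 0.90 ± 0.07. The background for these counts is the 30.9% of tested genes that rose and the median log2 change of 0.01 over all genes tested.

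Of 12 tested genes listed for intercalated-like cells, which are known from kidney, 10 rose, 1 fell and 1 did not pass. Their median was 0.70, and 30.9% of all tested genes rose. The gene that fell was SLC4A9 (-1.50 ± 0.25), and SLC26A4 did not pass (-0.14 ± 0.25, adjusted p = 0.659 by limma). The list was not split into acid-secreting and bicarbonate-secreting cell types. This list shares RHCG, SLC4A9 and SLC26A4 with the transport list and 4 genes with the V-ATPase list. Its summed level had a median of 497 FPKM in day 11 females and 422 FPKM in day 11 males, and of 1118 and 1039 FPKM at day 15. FOXI1, the transcription factor that defines these cells in mammals, rose by 0.45 ± 0.12 (adjusted p = 0.00153), less than the 2.74 of CA2. What part the number of such cells has in the CA2 change was not tested. Of 7 epithelial markers 6 rose and 1 did not pass, with a median of 0.60. Of 7 endothelial markers 5 rose and 1 fell, and of 6 stromal markers 1 rose and 3 fell, to be read against the same 30.9% and 29.3%.

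Red cells are rich in carbonic anhydrase, so their markers are given beside CA2 and CA13. Of 11 tested red-cell genes, 3 rose, 3 fell and 5 did not pass, against the same shares of all tested genes, 30.9% and 29.3%. For HBA1, the most abundant globin gene, the log2 change was -0.15 ± 0.14 (adjusted p = 0.381). For HBAD it was -0.23 ± 0.14 (adjusted p = 0.143). The globin genes HBE, HBBR and HBZ fell, with log2 changes of -4.56 ± 0.19, -4.52 ± 0.19 and -4.06 ± 0.23, and BPGM, which makes the red-cell regulator of oxygen binding in mammals, rose by 1.57 ± 0.10. SLC4A1, the bicarbonate-chloride exchanger of red cells and of intercalated cells, rose by 0.47 ± 0.10. With the mean log2 level of HBA1 and HBAD as a covariate, CA2 changed by 2.84 ± 0.12 and CA13 by 0.65 ± 0.14 (adjusted p = 4.21e-22 and 0.000155). Markers of macrophages and osteoclasts, of which osteoclasts are a known site of CA2, were taken as a single mixed list. All 7 of 7 tested genes fell, against 29.3% of all tested genes. CSF1R was at -1.44 ± 0.10, CTSK at -0.49 ± 0.08 and ACP5 at -0.58 ± 0.13, and DCSTAMP was too low to be tested. MARCO and TIMD4 had day 15 medians of 0.409 to 0.590 FPKM, around the filter of 0.5 FPKM, and were higher at day 11.

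Of 20 tested oxygen sensing and hypoxia response genes, the class CA9 belongs to in human cells, 11 rose, 2 fell and 7 did not pass, with a median of 0.16, against 30.9% of all tested genes that rose and 29.3% that fell. The rise was 1.66 ± 0.11 for EGLN3, whose product hydroxylates hypoxia-inducible factors, and 1.56 ± 0.15 for PFKFB3, a regulator of glycolysis. It was 1.20 ± 0.08 for DDIT4 and 0.99 ± 0.07 for BNIP3. The 2 genes that fell were EPAS1 (-0.55 ± 0.07) and NDRG1 (-0.22 ± 0.05). VEGFA, the vascular growth factor gene, was at -0.004 ± 0.10 (adjusted p = 0.978). In embryo deviations from group means, the median correlation of CA9 with these 20 genes was -0.004.

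Within groups, embryos with more CA2 also had more CA13. Deviations from the 4 group means were compared over 40 libraries for the 10 pairs of members, with permutation of libraries within groups (100000 resamples). CA2 and CA13 had r = 0.63 (permutation p = 4e-05, adjusted 0.0004) and rho = 0.59 (adjusted permutation p = 0.0027). Without embryos 57 and 81 of the day 15 males, the farthest from the median of CA2, r was 0.54. CA9 went the other way, with r = -0.39 against CA2 and -0.35 against CA13 (adjusted permutation p = 0.00515 and 0.00530; rho -0.51 and -0.44, adjusted permutation p = 0.00525 and 0.00867). Without embryos 57 and 81 the first was -0.47, and without embryos 6 and 41 of the day 11 females, the farthest for CA13, the second was -0.31. The other 7 pairs did not pass, with adjusted permutation p for r of at least 0.0901. The libraries share depth, tissue composition and scaling, whose part was not tested. The permutation treats the libraries of a group as interchangeable. CA13 and CA3A, however, rose with embryo number within day 11, and CA2 had a slope in the same direction that was not called. Embryo number was not taken out of the deviations, here or below, and its part was not tested.

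Among 10407 tested genes with a symbol and a mean log2 level of at least 0, the deviations most like those of CA2 were those of FOXI1 (r = 0.84, rho = 0.77), SLC4A1 (r = 0.81, rho = 0.74), BSND, a subunit of chloride channels in kidney and inner ear (r = 0.81, rho = 0.69), and the transcription factor gene DMRT2 (r = 0.81, rho = 0.71). Without the 2 farthest libraries r was 0.77, 0.69, 0.68 and 0.72. The most opposite was GPC1, a cell-surface proteoglycan gene (r = -0.75). These are the extremes of a ranking and are given with no p. Over the 12 intercalated-like genes the median r with CA2 was 0.75, and 10 of 12 were positive. Those below 0 were SLC4A9 (r = -0.20) and SLC26A4 (r = -0.10). Counts of positive r, here and for CA13, are given without the share over all ranked genes, which was not taken. Over 11 red-cell genes the median r with CA2 was 0.56 and all 11 were positive. They ran from 0.17 for HBE1 to 0.81 for SLC4A1, which is also a gene of intercalated cells. BPGM was at 0.72, RHAG at 0.63 and HBA1 at 0.47 by Pearson, and by Spearman these were 0.61, 0.52 and 0.24.

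For CA13 the closest were ANK1, which encodes the ankyrin of red cells (r = 0.88, rho = 0.84), WBP4 (r = 0.87, rho = 0.87), RIPOR3 (r = 0.84, rho = 0.78) and IREB2, an iron-sensing regulator gene (r = 0.82, rho = 0.75). Without the 2 farthest libraries r was 0.82, 0.83, 0.75 and 0.77. None of these 4 genes was called between the days, with changes of -0.04 to 0.15. Over the 12 intercalated-like genes the median r with CA13 was 0.58, and 10 of 12 were positive. Below 0 were SLC4A9 (r = -0.37) and SLC26A4 (r = -0.14). Over the 11 red-cell genes the median r with CA13 was 0.49, from 0.14 for HBBR to 0.80 for RHAG, with HBA1 at 0.38. The most opposite gene was KIAA1324 (r = -0.70).

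**Figure D5:**
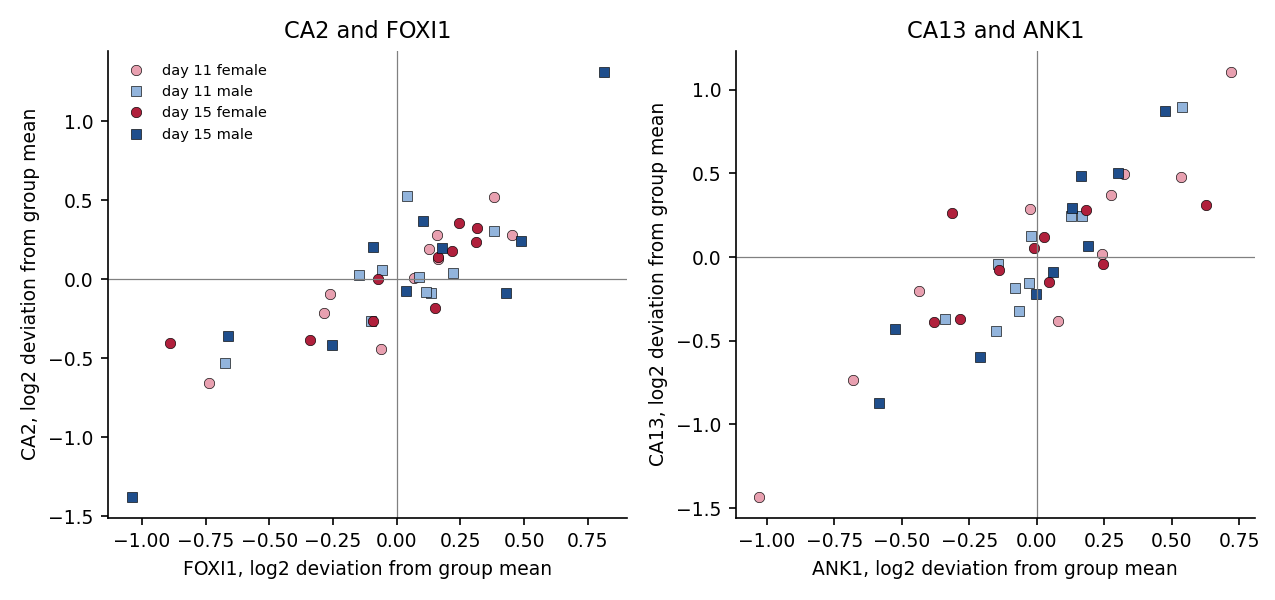
Log2 deviation of each library from its group mean for CA2 against FOXI1 (left) and CA13 against ANK1 (right), with circles for females and squares for males. The points follow a rising line in both panels (r = 0.84 and 0.88 over 40 libraries), and embryos 57 and 81 of the day 15 males are the lowest and highest points for CA2.

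The scarce members had weaker or less steady partners. CA9 was most like SEMA3B, a semaphorin gene (r = 0.80, rho = 0.69), and the lysosomal protease gene CTSH (r = 0.77, rho = 0.61), followed by PTTG1IP and APBB1 (r = 0.76 each). Without embryo 83 these 4 values were 0.64, 0.53, 0.50 and 0.49. Its most opposite gene was LDB2 (r = -0.74, and -0.55 without embryo 83). CA3A was most like TRAK1 (r = 0.71), PNPLA2, a triglyceride lipase gene (r = 0.70), CMTM6 (r = 0.68) and ZCCHC2 (r = 0.68), and most opposite to SFT2D1 (r = -0.68). The highest value for CA6 was 0.47 for gga-mir-1780, with ADCK2 and LRRC47 also at 0.47 and 0.46 and BPHL at 0.45, and the lowest was -0.55 for SLC25A33. CA6 had 63 to 317 reads per library.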

How the data were processed

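Libraries for Illumina sequencing came from total RNA and a NEBNext Ultra RNA kit, per the labels' protocols. HISAT2, HTSeq and build GRCg6a are named, per the submitters' processing notes. Not given in the sources used here are tool versions and the counting's strand setting. The authors deposited FPKM values under a name for raw counts: in 15718 single-transcript genes, 100% of values under 200 reads were whole multiples, within 0.01, of 1 read. All 40 columns were matched by name; 2 of them carry a shortened embryo number, its last 2 digits. Exon start and end coordinates and names came from the deposited annotation. Scaling used trimmed means of log ratios, unweighted (30% and 5% trimmed; factors 0.921 to 1.07), and values were log2-transformed after adding 0.1, then tested with limma 3.58.1 (R 4.3.3, statmod 1.5.0; trend, robust) with 4 group means; the linear model was checked on simulated data. Shares, order and correlations used SciPy 1.17.1, numpy 2.4.6 and pandas 2.3.3 in Python 3.11.15. Reads were implied from FPKM, exon length and depth. Genes named beside the 5 members were every other named carbonic anhydrase, up to 4 called genes of largest change per list whose mean log2 level was 0 or above, and the 4 most alike and 1 most opposite gene per member; marker genes given beside a result, libraries 57, 81 and 83 and the neighbours on chromosome 2 were chosen after their values were seen. The members and lists were chosen with earlier results of these data known. The alternatives tried were other added constants, filters, scalings and moderation, left-out libraries, embryo number or red-cell level as covariate, and reads in place of FPKM.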

Additional observations from a re-analysis of the deposited data

Results flagged for a closer look

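The CA13 value of embryo 24 of the day 11 males, 373 FPKM, lay far above the rest of its group, of which the next highest was 238 FPKM. The gap was 0.487 of the group's range on the log2 scale, past the critical value of 0.466 for 10 libraries. This was 1 of 36 groups examined (9 carbonic anhydrase genes in 4 groups), and chance alone gives about 1 such flag in 20 groups.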

How the results depend on the processing

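No paired analysis was possible because no embryo number occurs in more than 1 group. The averaged day changes of CA2 (2.63 to 2.89), CA9 (0.56 to 0.71) and CA6 (0.31 to 0.55) kept their direction and their call in all 12 alternatives. CA13 (0.34 to 0.84) and CA3A (0.30 to 1.51) kept their direction and lost their call in a single one, without the day 11 embryos numbered 2 to 20 (0.34 and 0.63). CA3A was left out by the stricter filter (1 FPKM in 20 libraries) and has no value there. No averaged sex difference of the 5 genes was called under any alternative. The number of genes called for the sex by day interaction, 4, was 8 with an added constant of 1, 8 without a filter, 2 with the stricter filter and 0 without the embryos numbered 2 to 20 (609 unadjusted p below 0.05); the cause was not tested. The fall of the CA9 share in females passed without embryo 83 (-0.713) and with medians (-0.726). On implied reads, an alternative chosen after seeing the data, the lead of CA13 over CA2 at day 11 was 0.0634 in females and 0.24 in males on the log2 scale and did not pass, because the division by exon length falls away. Among other single-gene values 758 kept their direction and call, 31 lost their call, 2 gained one and 0 reversed; the slopes with embryo number were not run with the covariates. Depth limits CA3A most, at 0 to 34 reads per library.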
